A study of Mus musculus with 69 samples.

Results

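Kidneys of lupus-prone mice in drug-induced remission were compared between lights on (ZT0) and lights off (ZT12). The libraries were chosen by their labels, diagnosis Remission and time ZT0 or ZT12, which gave 8 of the 69 libraries of the series, 4 at ZT0 (s1, s3, s4 and s8) and 4 at ZT12 (s9, s10, s12 and s14). All came from female NZB/W F1 mice, a hybrid strain that develops lupus nephritis with age, and each library is bulk RNA of a whole perfused kidney. The mice were 36 to 50 weeks old. After proteinuria above 300 mg/dl had set in, they received 1 dose of cyclophosphamide, an alkylating immunosuppressant (50 mg/kg), and 6 doses each of CTLA4Ig (200 µg) and anti-CD40L (250 µg), blockers of T cell costimulation, within 2 weeks. Remission meant proteinuria of at most 30 mg/dl, and kidneys were taken 8 weeks after treatment. For comparison, 14 libraries of young NZB/W F1 mice aged 12 weeks (7 at ZT0, 7 at ZT12) and 13 of untreated nephritic NZB/W F1 mice aged 30 to 45 weeks (7 at ZT0, 6 at ZT12) were used. Treatment, age and the sequencing of the libraries differ together between the remission mice and the others and cannot be told apart, and no untreated mice of the remission age without nephritis were analysed here. In bulk kidney, fewer cells of a type and less RNA per cell cannot be told apart.

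The circadian clock of mammalian cells is a feedback loop of transcription. Bmal1, listed here by its symbol Arntl, pairs with Clock or Npas2 and switches on the Per and Cry genes, the nuclear receptor genes Nr1d1 and Nr1d2, and output factors such as Dbp, and the PER and CRY proteins then hold their own activators back. In the kidney the clock is known for daily changes in salt and water handling and in metabolism, and adrenal glucocorticoids, which in mice are highest near lights off, and the feeding and fasting cycle act on many of the same genes.

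Total counts per remission library ranged from 13311278 to 21849912, lower than the 25257530 to 37771234 of the young and nephritic libraries, and a difference between ZT0 and ZT12 in depth was not detectable (exact permutation test, two-sided, p = 0.8, where 0.0286 is the smallest p that 4 against 4 allows). Pre-ribosomal 45S RNA (Rn45s) took 5.68% of the counts in s4, 3.28% in s9 and 0.439 to 0.858% in the other 6 libraries. Defining markers of proximal tubule, thick ascending limb, collecting duct, podocytes and endothelium were counted in every library, while 6 markers of adrenal medulla summed to 0.0483 to 1.28 CPM (counts scaled to a common library size with TMM factors of the remission libraries).

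The ZT12 library s9 went against its label on the clock genes, and results are given with it (8 libraries) and without it (7 libraries). The same was seen over 147 genes at least 2-fold apart between ZT0 and ZT12 in young mice. Each library was placed on a line from the ZT12 mean (0) to the ZT0 mean (1). The ZT12 mean left out s9, and every other library was left out of the mean of its own time. The means therefore differ somewhat between libraries. On this line s9 lay at 0.976 and the ZT0 libraries between 0.900 and 1.02, whereas s10, s12 and s14 lay at -0.0511, 0.0697 and 0.212. Among the 133 of these genes outside the clock list, s9 was nearer the ZT0 mean for 121, against 106 to 116 in the ZT0 libraries and 22 to 29 in the other ZT12 libraries. Over 11487 well counted genes, the log2 differences between s9 and the ZT0 library s8 had a scaled median absolute deviation of 0.1395, the smallest of the 28 pairs of remission libraries. Pairs taken at 1 time, without s9, ranged from 0.160 to 0.3135, and the 4 mice sequenced again, none of them in remission, gave 0.130 to 0.374 between their own libraries. The differences between s8 and s9 exceeded counting error (median squared difference 2.997 times that expected from it), as did those of the mice sequenced again (4.64 to 27.8 times). This measure therefore does not tell separate mice from 1 mouse sequenced again. The labels give s8 and s9 as separate samples, and they were kept so. Alas2, a heme synthesis gene of red blood cell precursors, was at 48.2 CPM in s8 and 51.7 CPM in s9 against 0.482 to 19.4 CPM elsewhere. Why s9 reads as it does was not tested.

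**Figure D1:**
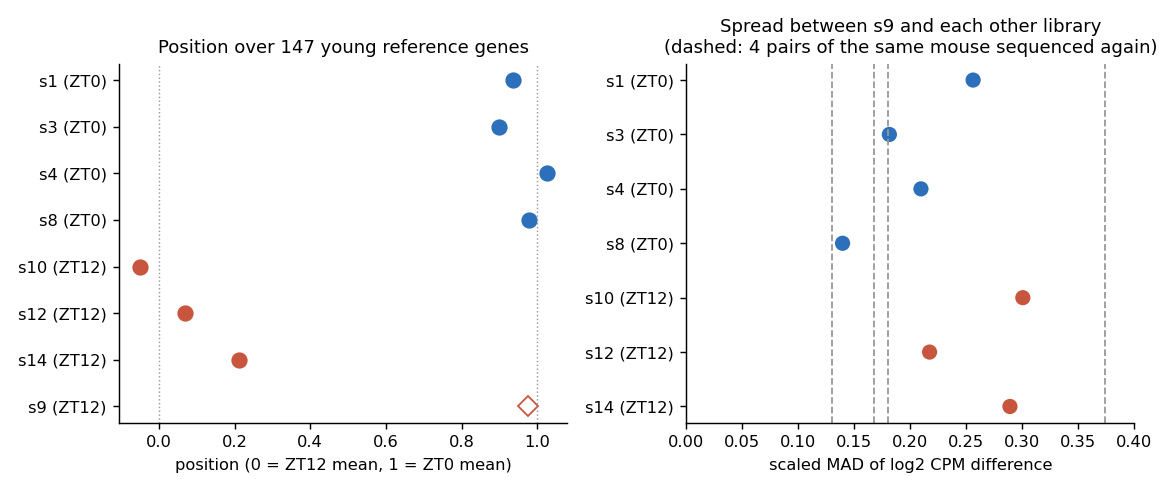
Left, position of each remission library between the ZT12 mean (0) and the ZT0 mean (1) over 147 genes chosen in young mice (blue, ZT0; red, ZT12; open diamond, s9), and right, the spread of log2 CPM differences between s9 and each other library (scaled median absolute deviation), with dashed lines for the 4 pairs of libraries of the same mouse. The means leave out s9 and the library being placed. The library s9 sits at 0.976 among the ZT0 libraries, and its nearest library is s8 of ZT0.

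Over the 7 libraries, clock genes of remission kidney were far apart between ZT0 and ZT12, with Arntl, Npas2 and Clock higher at ZT0 and most repressors and output factors higher at ZT12. Since s9 was set aside for these genes, their values over 7 libraries are a description and no test is given for them. Arntl was at 22.5, 27.4, 28.6 and 28.8 CPM at ZT0, at 4.10, 4.87 and 3.19 CPM in s10, s12 and s14, and at 27.2 CPM in s9. Npas2, the partner of Bmal1 that can stand in for Clock, was at 9.87, 13.6, 13.9 and 16.8 CPM at ZT0, at 2.36, 1.73 and 1.57 CPM at ZT12 and at 16.1 CPM in s9. For both genes every ZT0 library lay above the 3 ZT12 libraries, and s9 lay inside the ZT0 range. The log2 ratios of ZT0 to ZT12 over 7 libraries were 2.72 (SE 0.17) for Arntl, 2.83 (SE 0.24) for Npas2 and 0.75 (SE 0.13) for Clock. Rora, a nuclear receptor that activates Arntl, overlapped between the times (44.7 to 59.2 against 47.4 to 60.7 CPM).

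The repressors of the loop were mostly lower at ZT0. Per1 was at 33.7, 31.3, 35.5 and 30.5 CPM at ZT0, at 154, 157 and 53.6 CPM in s10, s12 and s14 and at 31.3 CPM in s9. Per2 was at 13.5, 12.8, 10.8 and 8.15 CPM at ZT0, at 70.7, 62.5 and 40.9 CPM at ZT12 and at 10.4 CPM in s9. Per3 was at 13.6, 9.19, 11.1 and 7.999 CPM at ZT0, at 39.3, 33.1 and 33.8 CPM at ZT12 and at 8.37 CPM in s9. None of the 3 Per genes overlapped between the times once s9 was left out, and s9 lay with the ZT0 libraries in each. Ciart, a repressor that binds the Clock and Bmal1 pair, was at 1.14 ± 0.610 CPM (SD, n = 4) at ZT0 and 8.70 ± 2.62 CPM (SD, n = 3) at ZT12. Cry2 and Cry1, the cryptochromes, were at 16.7 to 20.4 against 33.4 to 53.8 CPM and 7.84 to 13.96 against 15.97 to 16.96 CPM, and the repressors Bhlhe40 and Bhlhe41 at 118 to 146 against 164 to 188 CPM and 3.53 to 7.90 against 10.9 to 24.5 CPM, all without overlap. Nr1d1, whose protein represses Arntl, was at 30.1 to 52.8 CPM at ZT0 and 48.5, 38.8 and 73.7 CPM at ZT12, so the times overlapped, while Nr1d2, its paralog, was at 36.1 to 61.2 against 105 to 127 CPM. Nfil3, a repressor at D-boxes, overlapped too (21.2 to 26.9 against 12.1 to 23.8 CPM).

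The widest ratio of the list was that of Dbp, an output factor of the PAR bZIP family. It was at 15.1, 14.4, 8.70 and 6.92 CPM at ZT0, at 108, 74.1 and 122 CPM at ZT12 and at 7.97 CPM in s9, a log2 ratio of -3.15 (SE 0.28) over 7 libraries. The related factor Tef was at 149 ± 29.8 CPM (SD, n = 4) at ZT0 and 365 ± 26.2 CPM (SD, n = 3) at ZT12, and Hlf at 75.1 to 109 against 114 to 214 CPM. Genes that set the stability of clock proteins (Csnk1d, Csnk1e and Fbxl21) had log2 ratios between -0.06 and 0.02. Of the 23 clock genes, 3 were higher at ZT0 and 13 higher at ZT12 without overlap over 7 libraries, where 16.2% of the 14316 genes tested did not overlap (7.17% with the higher level at ZT12), and their median log2 ratio was -0.66 (0.0048 over all genes tested). With s9 included, 0 of the 23 were without overlap, against 4.12% of 14451 genes tested. The log2 ratios over 8 libraries were 1.47 (SE 0.61) for Arntl, -2.03 (SE 0.48) for Per2 and -2.78 (SE 0.66) for Dbp, with adjusted p = 0.495, 0.487 and 0.487 (edgeR quasi-likelihood test, Benjamini-Hochberg over all genes tested). A joint edgeR fit of the same 8 libraries with those of young and nephritic mice called Ciart, Dbp, Per2 and Per3 of the list, and DESeq2 over the 8 libraries called Ciart.

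**Figure D2:**
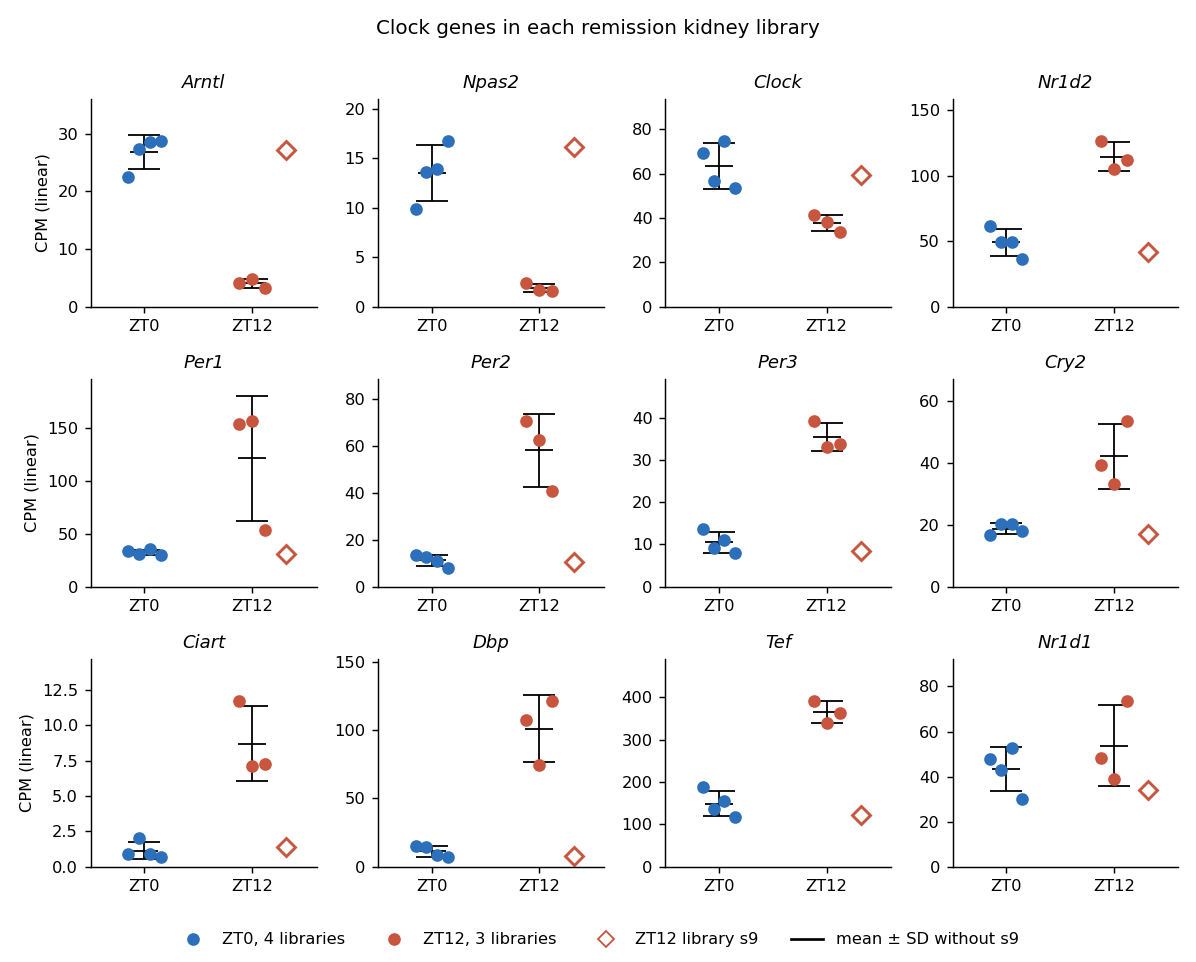
Level of 12 clock genes in each remission library, in CPM on linear axes from 0, with blue points for the 4 ZT0 libraries, red points for 3 ZT12 libraries, an open diamond for the ZT12 library s9, and bars for the mean ± SD without s9. In 11 of the panels, all but Nr1d1, red and blue points do not overlap, and in all 12 the diamond lies within or beside the range of the blue points.

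Promoters are shown for the clock genes with the widest ratios over 7 libraries among those whose window held 1 of the elements through which the loop is known to act. These are the E-box CACGTG bound by Bmal1 dimers, the D-box TTATGTAA bound by PAR bZIP factors, and the ROR element TNGGTCA bound by the Ror and Nr1d receptors. Each is the 250 bases before a transcription start in RefSeq, searched on both strands, with matches in capitals.
Ciart promoter, chr3:95882229-95882478, GRCm38.p6, minus strand: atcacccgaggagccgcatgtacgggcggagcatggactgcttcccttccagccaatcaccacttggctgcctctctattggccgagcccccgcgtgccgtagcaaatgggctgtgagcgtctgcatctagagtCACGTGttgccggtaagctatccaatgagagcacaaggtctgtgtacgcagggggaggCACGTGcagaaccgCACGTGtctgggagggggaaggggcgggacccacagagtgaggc
Arntl promoter, chr7:113207215-113207464, GRCm38.p6, plus strand: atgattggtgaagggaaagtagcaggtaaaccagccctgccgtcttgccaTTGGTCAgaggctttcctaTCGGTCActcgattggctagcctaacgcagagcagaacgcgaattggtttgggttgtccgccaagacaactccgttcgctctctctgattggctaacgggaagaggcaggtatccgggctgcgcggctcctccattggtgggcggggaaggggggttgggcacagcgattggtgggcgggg
Per1 promoter, chr11:69098699-69098948, GRCm38.p6, plus strand: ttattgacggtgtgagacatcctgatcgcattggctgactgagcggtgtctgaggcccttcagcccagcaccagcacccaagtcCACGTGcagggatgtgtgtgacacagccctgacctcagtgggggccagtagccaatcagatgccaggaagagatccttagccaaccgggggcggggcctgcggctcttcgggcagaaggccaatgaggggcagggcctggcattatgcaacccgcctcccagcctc
Per3 promoter, chr4:151044666-151044915, GRCm38.p6, minus strand: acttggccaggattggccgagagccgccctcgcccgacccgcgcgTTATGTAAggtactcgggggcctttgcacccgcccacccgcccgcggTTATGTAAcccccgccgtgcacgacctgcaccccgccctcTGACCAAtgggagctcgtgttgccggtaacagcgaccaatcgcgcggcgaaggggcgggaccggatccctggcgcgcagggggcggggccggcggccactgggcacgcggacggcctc
Bhlhe41 promoter, chr6:145865421-145865670, GRCm38.p6, minus strand: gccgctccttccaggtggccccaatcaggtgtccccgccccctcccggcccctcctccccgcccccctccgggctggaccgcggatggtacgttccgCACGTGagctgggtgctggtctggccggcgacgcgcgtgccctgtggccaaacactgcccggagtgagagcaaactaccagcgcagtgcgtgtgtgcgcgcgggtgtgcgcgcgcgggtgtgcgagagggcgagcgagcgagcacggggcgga
Ciart held 3 E-boxes, 116, 58 and 44 bases before the start. Arntl held 2 ROR elements, at 200 and 181 bases. Per1 held an E-box at 166 bases in the window shown and no match in its other window. Per3 held D-boxes at 205 and 158 bases and a ROR element at 118 bases, and Bhlhe41 an E-box at 153 bases. Per2, whose ratio was wider than that of Per1, had no window to search. The windows of Dbp and Npas2, whose ratios were among the 3 widest of the clock list, held no match. Those of Nr1d2, Hlf and Clock held none either. Among the 27025 symbols with such a window, 6.86% held an E-box, 0.977% a D-box and 10.5% a ROR element. Among the 11363 of them tested over 7 libraries the shares were 9.63%, 0.625% and 10.2%. A match describes letters and does not show binding.

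Across all genes, the count of differences between ZT0 and ZT12 rested on s9. With the labels as given, 0 of 14451 genes passed an adjusted p of 0.05 by edgeR (0%), with 1449 at an unadjusted p under 0.05. DESeq2 called 24 genes on the same 8 libraries and a joint fit with the young and nephritic libraries 9. The 5 genes called by both were Ciart, Hif3a, Map3k6, Slc10a6 and Tspan4, a tetraspanin of cell membranes that was named after its values were seen. Without s9, 202 of 14316 genes were called (1.41%), 91 higher at ZT0 (0.636%) and 111 higher at ZT12 (0.775%). The 202 include 12 clock genes (3 higher at ZT0, 9 higher at ZT12). These count only as a description. All 202 had the same direction over 8 libraries. These include the 7 that gave the calls, so the shared direction is no separate support. Among the 202, 27 did not overlap over 8 libraries, where 4.12% of all genes tested did not. This count is no separate support either, since the calls already favour genes that are apart in 7 of the 8 libraries. For 200 of the 202, s9 itself was nearer the ZT0 mean than the mean of the other ZT12 libraries. Because s9 was set aside for measured values, adjusted p-values over 7 libraries belong to that choice of libraries, also for genes outside the clock list that move with it. Leaving out 1 more library left 30 calls without s12, 31 without s3, 56 without s4, 72 without s8, 109 without s1, 189 without s14 and 596 without s10, and 21 of the 202 genes were called in each of these 7 fits.

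Genes of fasting and fat use were among those higher at ZT12. Angptl4, an inhibitor of lipoprotein lipase, was at 14.1, 13.8, 13.9 and 12 CPM at ZT0, at 95.9, 77.5 and 95.8 CPM at ZT12 and at 9.83 CPM in s9, without overlap once s9 was left out. It lies on chromosome 17 (33774900 to 33781575, GRCm38) and had the smallest adjusted p of all genes over 7 libraries, 3.15e-05 (log2 ratio -2.74, SE 0.10). Pdk4, a kinase that shuts pyruvate out of the citric acid cycle, was at 27.8, 29.6, 30.1 and 27.6 CPM at ZT0, at 68.9, 94.3 and 74.4 CPM at ZT12 and at 28.9 CPM in s9 (log2 ratio -1.46, SE 0.11, adjusted p = 0.00242). Both kept their call when any 1 of the 7 libraries was left out, with adjusted p of at most 0.000954 and 0.0184. The mitochondrial carriers Slc25a33, for pyrimidine nucleotides, and Slc25a20, for acylcarnitines, and Plin2, a coat protein of lipid droplets, were called too, with log2 ratios of -1.05, -0.74 and -0.53 (adjusted p = 0.0129, 0.0256 and 0.0129). These 3 calls were lost without s3 or s12, with adjusted p up to 0.109, and those of the carriers also without s4. Of 39 genes of PPAR-alpha targets and fatty acid oxidation tested, these 5 were called higher at ZT12 and 0 higher at ZT0. Over all genes, 0.775% were called higher at ZT12 and 0.636% higher at ZT0. The median log2 ratio of the list was -0.29, with 30 of the 39 below 0 and 9 above, where 7026 of all 14316 genes were below 0. Not all targets moved: Cyp4a10, Cyp4a14, Acot1 and Ehhadh had log2 ratios between -0.03 and 0.08. The oxidation enzyme Acadm went the other way, at 0.56 without a call. Over 8 libraries, Angptl4 had a log2 ratio of -2.38 (SE 0.55, unadjusted p = 0.00168, adjusted p = 0.487) and the list 0 calls by edgeR, while DESeq2 called Pdk4 of the list.

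Targets of the glucocorticoid receptor were likewise among the genes higher at ZT12. Fkbp5, a co-chaperone of that receptor, was at 52.96, 40.3, 35.5 and 38.5 CPM at ZT0, at 166, 148 and 264 CPM at ZT12 and at 36.6 CPM in s9. Its log2 ratio over 7 libraries was -2.20 (SE 0.22, adjusted p = 0.00627), and the call held without each of them, up to an adjusted p of 0.0411. The metallothioneins Mt1 and Mt2, which bind zinc and copper, were at 162 ± 22.4 and 41.9 ± 6.08 CPM (SD, n = 4) at ZT0 and 333 ± 35.2 and 114 ± 32.3 CPM (SD, n = 3) at ZT12, with s9 at 170.3 and 43.5 CPM. They were called at adjusted p = 0.00995 and 0.0165, and Nfkbia, the inhibitor of NF-κB, at adjusted p = 0.0491 (43.1 to 48.2 against 58.4 to 99.4 CPM). The calls of all 3 were lost without s3 or s12, with adjusted p up to 0.154, that of Mt2 also without s4, and that of Nfkbia also without s1, s4 or s8. Tsc22d3, which codes for the anti-inflammatory protein GILZ, was at 35.1 to 47.03 CPM at ZT0 and 225, 185 and 59.3 CPM at ZT12, and missed the threshold (adjusted p = 0.0522). All 15 receptor targets tested had a ratio below 0, 8 of them without overlap over 7 libraries. Over all genes, 7026 of 14316 genes had a ratio below 0 and 7.17% were higher at ZT12 without overlap. The targets' median log2 ratio was -1.04, while the 4 receptor and enzyme genes (Nr3c1, Nr3c2, Hsd11b1 and Hsd11b2) had a median of 0.03. With s9 included, the 15 targets had ratios below 0 with a median of -0.85, and 0 were without overlap. By edgeR 0 of them were called over 8 libraries, while DESeq2 called Mt1 and Mt2. Fkbp5 then had a log2 ratio of -1.88 (SE 0.46, adjusted p = 0.487 by edgeR). In young mice the log2 ratios were -1.75 for Fkbp5, -0.32 for Mt1 and -0.34 for Mt2, and the differences from the 8-library remission ratios did not pass the threshold (adjusted p = 0.909, 0.450 and 0.342).

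**Figure D3:**
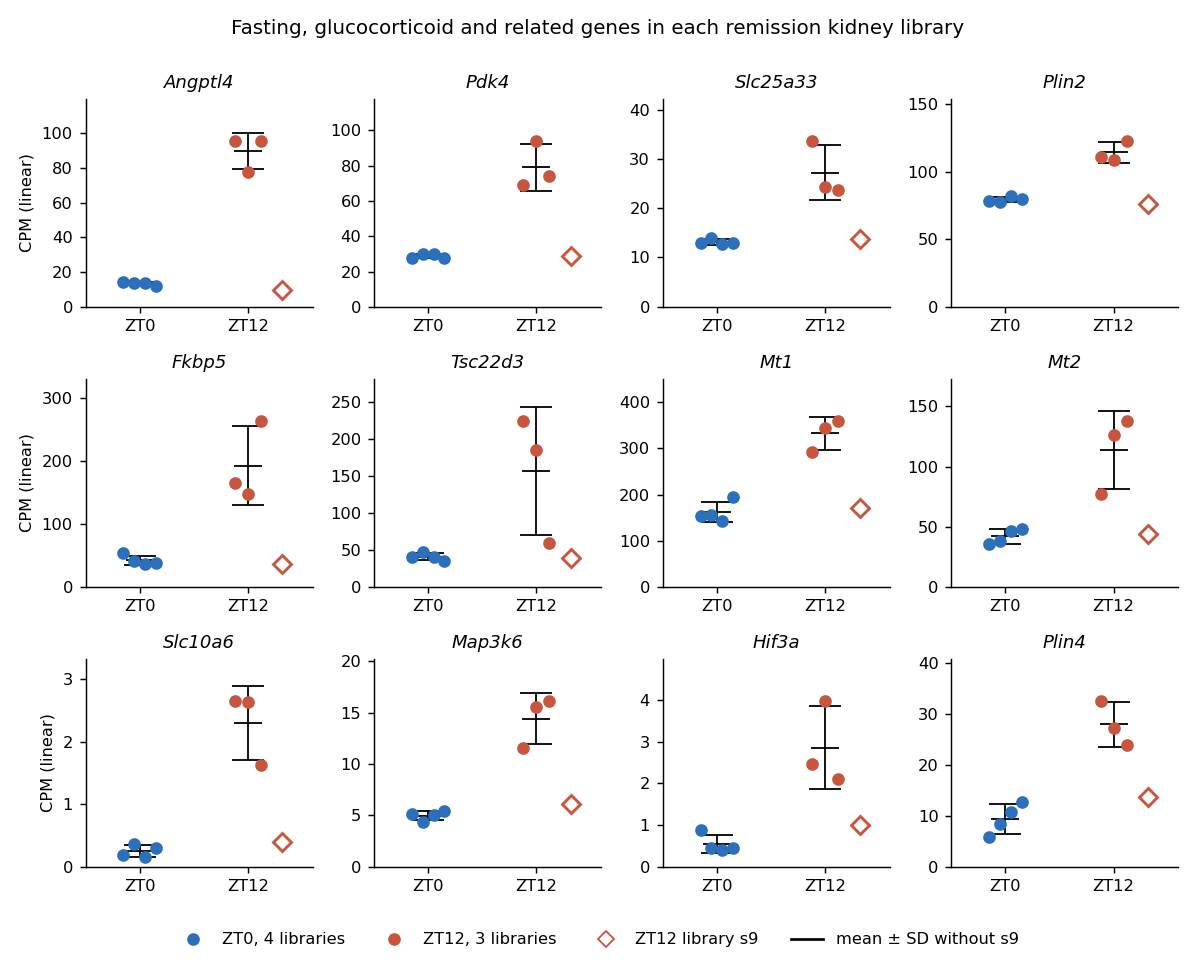
Level of 12 genes of fasting, glucocorticoid response and related functions in each remission library, in CPM on linear axes from 0, with symbols as in the plot of clock genes. The 3 red points lie above the 4 blue points in every panel, and the diamond of s9 is nearer the blue points, as for Fkbp5, at 36.6 CPM.

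With s9 kept at its label, genes that did not overlap between the 4 ZT0 and 4 ZT12 libraries were named by their p-value in the 8-library test, and none of them was called by edgeR over 8 libraries. DESeq2 called Slc10a6, Map3k6, Hif3a, Inmt, BC018473, Plin4, Tusc5, Bche, Pttg1, 2010204K13Rik and Dleu7 among them, and the joint fit Hif3a, Map3k6 and Slc10a6. Slc10a6, an uptake carrier for steroid sulfates, was at 0.194, 0.364, 0.160 and 0.308 CPM at ZT0, at 2.65, 2.62 and 1.62 CPM in s10, s12 and s14 and at 0.398 CPM in s9. Map3k6, a stress-activated kinase, was at 4.37 to 5.38 CPM at ZT0, at 11.5, 15.6 and 16.2 CPM at ZT12 and at 6.11 CPM in s9. Hif3a, a hypoxia-inducible factor subunit, was at 0.399 to 0.871 CPM at ZT0, at 2.46, 3.98 and 2.11 CPM at ZT12 and at 0.996 CPM in s9. In each of these genes s9 lay above the ZT0 libraries but nearer to them than to the other ZT12 libraries. Over 8 libraries their log2 ratios were -2.78 (SE 0.58), -1.31 (SE 0.27) and -2.10 (SE 0.44), each with an adjusted p of 0.487. Inmt, a methyltransferase of indole amines, was at 10.3 to 10.7 CPM at ZT0, at 24.6, 22.5 and 34.4 CPM at ZT12 and at 12.5 CPM in s9, and BC018473, for which no role is given, at 9.77 to 18.1 against 19.3 to 52.1 CPM.

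Genes expressed in fat cells were in this group. Plin4, a coat protein of lipid droplets, was at 5.76, 8.37, 10.8 and 12.7 CPM at ZT0, at 32.6, 27.2 and 24 CPM at ZT12 and at 13.7 CPM in s9. Tusc5, which takes part in glucose transporter traffic in fat cells, was at 2.47 to 3.59 against 4.45 to 9.80 CPM. The summed level of 8 adipocyte markers was 43.1, 172, 147 and 318 CPM at ZT0, 436, 441 and 370.4 CPM in s10, s12 and s14 and 331 CPM in s9, without overlap (exact permutation test, two-sided, p = 0.0286, adjusted over 20 marker lists p = 0.571). Adipoq alone, the fat cell hormone adiponectin, was at 3.58 to 19.7 against 19.4 to 39.95 CPM. The part of fat tissue in these results was not tested. Further genes of the group were Cd163, the hemoglobin scavenger receptor of macrophages (0.387 to 0.667 against 1.08 to 2.20 CPM), Bche, a plasma cholinesterase (0.194 to 0.923 against 2.26 to 2.48 CPM), and Pttg1, which codes for securin (3.72 to 4.63 against 6.03 to 8.11 CPM).

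Genes of the same kind were also found higher at ZT0. The one with the smallest p was 2010204K13Rik, for which no role is given, at 6.96, 7.004, 7.18 and 6.92 CPM at ZT0, at 4.83, 4.03 and 4.21 CPM in s10, s12 and s14 and at 4.51 CPM in s9 (log2 ratio 0.67 over 8 libraries, unadjusted p = 0.000422, adjusted p = 0.487). Slc11a2, the iron transporter DMT1, was at 70.7 to 88.3 against 54.4 to 66.7 CPM, and Uros, a heme synthesis enzyme, at 21.1 to 24.4 against 14.8 to 18.3 CPM. Chordc1, a co-chaperone of Hsp90, was at 49.8 to 56.6 against 41.7 to 44.7 CPM, and Espn, an actin bundling protein, at 43.8 to 49.9 against 28.1 to 38.05 CPM. The others were Coprs, Fam25c, St3gal6, Dleu7 and Ttc22, with log2 ratios of 0.30 to 1.03 over 8 libraries. No overlap over 8 libraries was seen for 333 genes higher at ZT0 (2.30% of 14451) and 262 higher at ZT12 (1.81%).

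Over 7 libraries, the widest ratios among genes called higher at ZT0 outside the clock list included weakly expressed genes of membranes and cell contact. Igfn1, an immunoglobulin-like protein of muscle, was at 1.31 to 2.39 CPM at ZT0 and 0.241, 0.515 and 0.324 CPM at ZT12, and Kcna1, a voltage-gated potassium channel, at 1.46 to 3.53 against 0.281 to 0.648 CPM. Cdh20, a cadherin, was at 1.68 to 2.18 against 0.469 to 0.579 CPM, and Pdzrn4, a PDZ domain protein, at 4.55 to 5.32 against 0.797 to 1.46 CPM. More strongly expressed were Nccrp1, an F-box-like protein (49.5 to 97.8 against 17.8 to 30.6 CPM), Ggct, an enzyme of glutathione breakdown (33.2 to 53.2 against 17.1 to 19.4 CPM), Rph3a, a Rab effector (8.22 to 16.1 against 3.67 to 4.11 CPM), and Fabp7, a fatty acid binding protein (8.05 to 10.8 against 2.54 to 4.29 CPM). In all 8, s9 lay inside or above the ZT0 range. Their adjusted p-values over 7 libraries were 0.00994 to 0.0459, and each call was lost without s12 or s3, with adjusted p up to 0.167. Among the widest ratios toward ZT12, beyond genes already described, were Cyp2a5, a cytochrome P450 that metabolises coumarin (44.5 to 59.5 against 106 to 304 CPM, adjusted p = 0.0234), and Nnat, a membrane proteolipid (2.03 to 3.05 against 6.84 to 15.6 CPM, adjusted p = 0.0314). Both calls were lost without s3, s4 or s8, with adjusted p up to 0.107 and 0.111, and that of Nnat also without s1 or s12.

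Calls among genes of salt and water transport are given over 7 libraries, where 1.41% of all genes were called. Usp2, a ubiquitin protease under clock control, was at 66.2 to 89.2 CPM at ZT0, at 360.3, 284 and 171 CPM at ZT12 and at 74.2 CPM in s9 (log2 ratio over 7 libraries -1.81, SE 0.23, adjusted p = 0.0128). Kcnj1, the ROMK potassium channel of thick ascending limb and collecting duct, was at 509.7, 589.6, 521 and 524 CPM at ZT0, at 415, 368 and 349 CPM at ZT12 and at 544 CPM in s9 (log2 ratio 0.51, SE 0.09, adjusted p = 0.0424). These were the 2 calls among 23 genes of distal sodium transport, whose median log2 ratio was -0.01. Usp2 lost its call without s3 or s12 (adjusted p up to 0.0659) and Kcnj1 without any library other than s10 (adjusted p up to 0.161). Slc12a1, the sodium, potassium and chloride cotransporter that loop diuretics block, was at 2003 to 2587 CPM at ZT0, at 1627, 1377 and 1379 CPM at ZT12 and at 2191 CPM in s9, with adjusted p = 0.0589. Among 8 genes of water transport, 0 were called. Aqp4, a basolateral water channel, was at 225 to 325 against 110.2 to 186 CPM (adjusted p = 0.0742), and Avpr2, the vasopressin receptor of the collecting duct, at 33.8 to 48.7 against 22.4 to 26.6 CPM (adjusted p = 0.0557). Summed markers of thick ascending limb, Slc12a1 among them, stood at 10100 to 11603 CPM at ZT0, 8458 to 9664 CPM in s10, s12 and s14 and 11015 CPM in s9. Those of inner medulla and papilla, Aqp4 among them, stood at 405 to 464, 241 to 283 and 448 CPM. The part of tissue composition in these values was not tested. In the lists of phosphate, calcium and vitamin D (18 genes tested), blood pressure and vasoactive genes (22), amino acid and peptide transport (27) and organic ion and drug transport (29), 0 genes were called, with median log2 ratios between -0.04 and 0.13.

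Metabolic lists had 1 to 3 calls each over 7 libraries, where 1.41% of all genes were called. Pck1, which catalyses the committed step of gluconeogenesis, was at 2002 to 2765 CPM at ZT0, at 7469, 5459 and 3586 CPM at ZT12 and at 1840 CPM in s9 (log2 ratio -1.21, SE 0.23, adjusted p = 0.0479), the 1 call among 28 genes of glucose handling. Scd2, a fatty acid desaturase, was higher at ZT0 (log2 ratio 0.52, adjusted p = 0.0383), 1 of 2 calls among 36 genes of sterol and fatty acid synthesis. In the detoxification list, 3 of 37 genes were called, all higher at ZT12, namely Cyp2a5, the cytochrome P450 Cyp2e1 (52.2 to 74.2 against 97.2 to 158 CPM, adjusted p = 0.0296) and the sulfotransferase Sult1a1 (59.8 to 64.3 against 89.9 to 108 CPM, adjusted p = 0.0103). Herpud1, a component of protein degradation at the endoplasmic reticulum, was at 139 to 234 against 334 to 683 CPM (adjusted p = 0.0401), the 1 call among 22 genes of ER stress. Each of these calls was lost without s3, with adjusted p up to 0.170 for Pck1, and all but those of Cyp2a5 and Cyp2e1 also without s12. The heat shock and cold-inducible list (19 genes) and the immediate early list (21 genes) had 0 calls, with median log2 ratios of 0.07 and -0.53.

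Summed markers of immune cells overlapped between the times. The summed level of 10 macrophage markers was 343, 594, 631 and 778 CPM at ZT0, 342, 1044 and 1274 CPM in s10, s12 and s14 and 746 CPM in s9 (exact permutation test, p = 0.314). B and plasma cell markers stood at 289 to 630.2 CPM at ZT0 and 240.1, 755, 1239 and 607 CPM at ZT12 (exact permutation test, p = 0.429), and T cell markers at 12.1 to 41.95 against 13.2 to 90.9 CPM (exact permutation test, p = 0.286). At ZT12, s10 was lowest and s14 highest in each of these. Vcam1, an adhesion molecule, was at 17.3 to 24.9 against 24.2 to 59.9 CPM over 7 libraries (adjusted p = 0.106) and Krt20, a keratin of injured tubules, at 0.821 to 1.92 against 1.35 to 8.76 CPM (adjusted p = 0.124). Among 18 genes of tubular injury, the 1 call was Clu, a secreted chaperone, at 373 to 482 against 649.9 to 826 CPM (log2 ratio -0.76, adjusted p = 0.0284). The list median was -0.70, with 11 of the 18 at an unadjusted p under 0.05 (17.1% of all genes tested). Without overlap, 1 of the 18 was higher at ZT12 and 1 higher at ZT0, where 16.2% of all genes tested did not overlap. For Krt20 and Lcn2 of this list, s10 lay inside the ZT0 range, at 1.35 and 14.5 CPM. Krt20 was at 8.76 and 7.95 CPM in s12 and s14, and Lcn2 at 56.6 and 64.8 CPM. For Clu, s10 lay above the ZT0 range, at 649.9 CPM. The part of single mice in the list median was not tested. Interferon-stimulated genes (21), and chemokines and cytokines (15 of 20 tested), had 0 calls. The proliferation list had 1 call of 22, Wee1, a kinase that delays mitosis and a clock target (15.7 to 19.2 against 30.9 to 50.96 CPM, adjusted p = 0.0136), and a median of -0.83. Of its 22 genes, 2 were higher at ZT12 and 0 higher at ZT0 without overlap, where 7.17% of all genes tested were higher at ZT12 without overlap. The extracellular matrix list had 1 call of 20, Col4a3, a collagen of the glomerular basement membrane, which was higher at ZT0 (253 to 363 against 155 to 183 CPM, adjusted p = 0.0445). The calls of Clu, Wee1 and Col4a3 were lost without s12, at adjusted p = 0.119, 0.0760 and 0.143, and also without s3, s4 or s8.

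**Figure D4:**
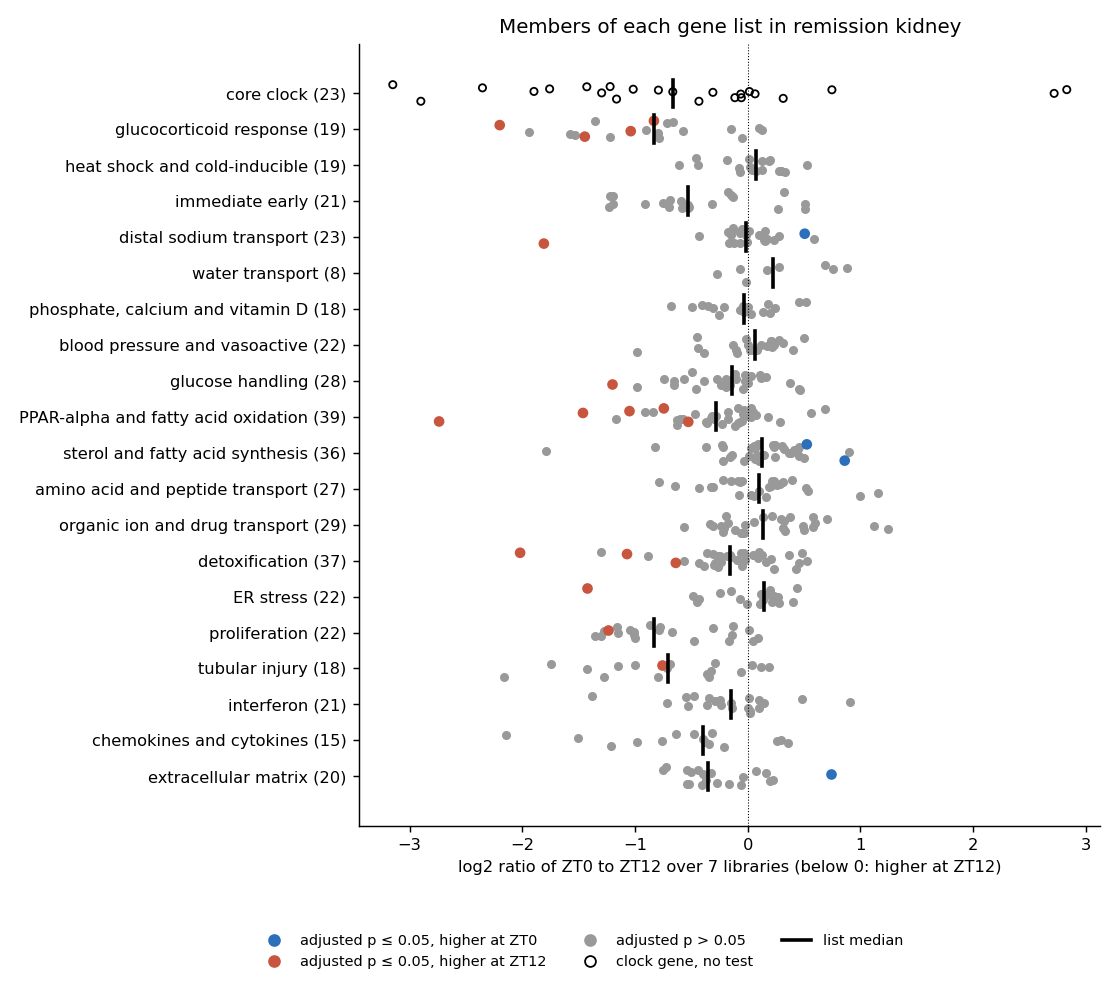
Log2 ratio of ZT0 to ZT12 over 7 libraries (below 0, higher at ZT12) for the tested members of 20 gene lists, with their number in brackets, where coloured points passed an adjusted p of 0.05, grey points did not, open circles are clock genes, for which no test is given, and black bars are list medians. The medians of the glucocorticoid list (-0.83) and the proliferation list (-0.83) lie furthest to the left, with 4 and 1 coloured points.

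Genes that differ between the times in young mice mostly kept their direction in remission. In young mice, 216 genes differed at least 2-fold at an adjusted p of at most 0.05. Their 10 widest ratios toward ZT12 included genes of adrenal medulla and sympathetic neurons (Pnmt, Th, Chga, Rab3c, Resp18, Chgb, Dbh, Scg2 and Phox2a), none of which reached 100 counts over the remission libraries, and 148 of the 216 were tested there. Over 8 libraries 143 of the 148 had the direction seen in young mice (96.6%, against 60.5% of all 14332 genes tested in both), and over 7 libraries 141 of 147 (95.9%). Of those 147, 51 were called, clock genes included, against 1.41% of all genes. The median share of the young log2 ratio was 0.596 over 8 libraries and 0.760 over 7. In nephritic mice, over the same 148 genes, 122 had the young direction and the median share was 0.293. The young ratios chose these genes, which raises them, so genes were also chosen in 1 of the 2 sets of young mice (Set 2, 235 genes). Their median share was 0.579 in the Set 1 young mice, 0.438 over 8 remission libraries, 0.559 over 7, and 0.211 in nephritic mice. Of the widest young ratios toward ZT0 beyond Npas2, Arntl and Fabp7, Foxs1, a forkhead factor, stood in remission at 1.18 to 2.08 against 0.432 to 0.937 CPM over 7 libraries and Cpne5, a calcium-dependent membrane binding protein, at 1.31 to 3.38 against 0.145 to 1.24 CPM, both without overlap but not called, while Nfasc, a cell adhesion protein, overlapped (3.19 to 4.46 against 2.03 to 3.999 CPM). Of the 202 genes called over 7 libraries, 150 were also called in young mice, all in the same direction, which is 74.3% of the remission calls and 5.82% of the young calls (16.6% of genes tested in young mice were called). In nephritic mice, where 0.0746% of genes were called, 6 of the 202 were, Arhgef10l, Itgb6 and 4 clock genes.

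**Figure D5:**
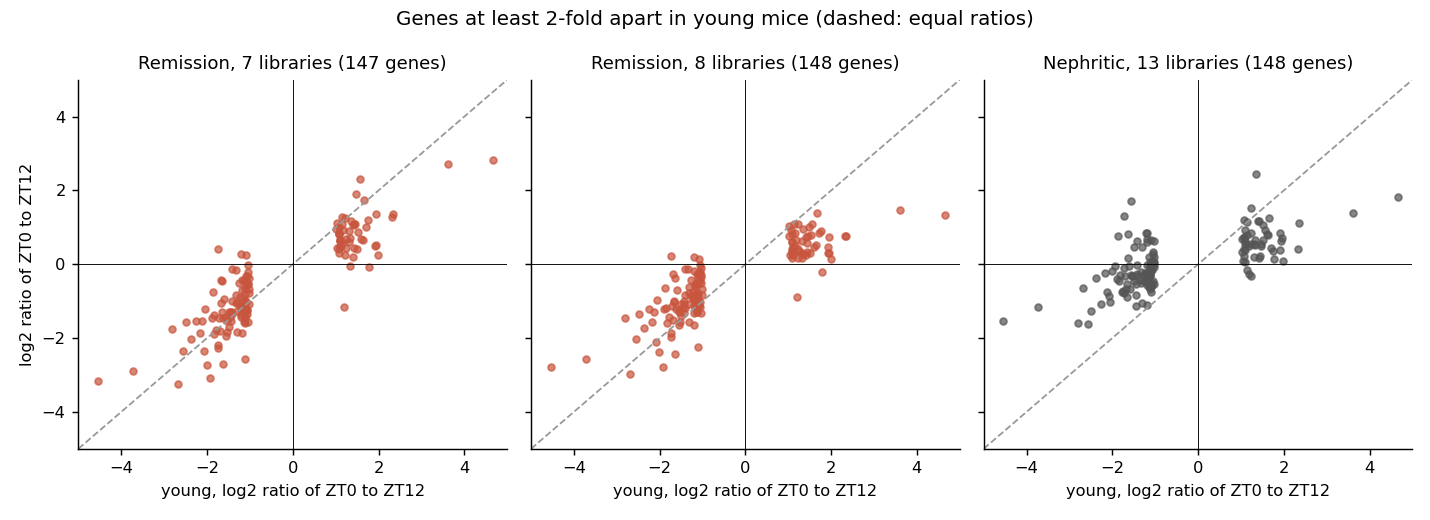
Log2 ratio of ZT0 to ZT12 of genes at least 2-fold apart in young mice (x axis) against the log2 ratio in remission over 7 libraries (147 genes), in remission over 8 libraries (148 genes) and in nephritic mice (the same 148 genes), with a dashed line for equal ratios. In remission 141 of 147 and 143 of 148 points share the sign of the young ratio, and in nephritic mice 122 of 148.

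A test of the difference itself, the group by time term of an edgeR fit of both groups, found 31 of 15982 genes (0.194%) whose ratio differed between remission and young mice over 8 libraries, and 54 of 15947 (0.339%) over 7, with 24 in both. Of the 31, 29 had the ratio nearer 0 in remission, and 11 the opposite sign to young mice. Of the 54 over 7 libraries, 32 had the ratio nearer 0 and 35 the opposite sign. Dtx4, a ubiquitin ligase of Notch signalling, was at 24.96, 22.6, 34.8 and 27.9 CPM at ZT0, at 15.2, 23.1 and 18.5 CPM in s10, s12 and s14 and at 31.9 CPM in s9, with overlap, where young mice had 41.9 ± 4.93 CPM at ZT0 and 10.9 ± 1.16 CPM at ZT12 (SD, n = 7 each). Its log2 ratio was 0.31 in remission and 1.94 in young mice (difference -1.65, adjusted p = 0.00116), and over 7 libraries the difference was -1.43 (adjusted p = 0.00100). Slc16a1, a lactate and pyruvate carrier, Ethe1, a mitochondrial sulfide-oxidising enzyme, Dcdc2a, a doublecortin domain protein, and Htra1, a serine protease, had differences of -1.64, -1.15, -1.21 and -0.85 (adjusted p = 0.0114, 0.0114, 0.0114 and 0.0122), all with the higher level at ZT0 in young mice. Within remission, Ethe1 was higher at ZT0 over 7 libraries (106 to 144 against 78.1 to 82.8 CPM, adjusted p = 0.0292), a call lost without s1, s4, s8, s12 or s14. Cdkn1a, the cell cycle inhibitor p21, had a log2 ratio of 0.80 in young mice and -0.61 over 8 remission libraries (difference -1.43, adjusted p = 0.0247). Against nephritic mice, 0 of 16344 genes differed by edgeR over 8 libraries (0%, with 977 at an unadjusted p under 0.05), and limma-voom likewise called 0. Over 7 libraries there were 2 (0.0122% of 16328). These were Slc10a6 (difference -3.03, adjusted p = 0.0446) and Alkbh3os1, an antisense gene (difference 3.05, adjusted p = 0.0446). Alkbh3os1 was at 0.339 to 0.637 CPM at ZT0 and at 0.048, 0.047 and 0.108 CPM in s10, s12 and s14. In s9 it was at 0.398 CPM. Its counts over the remission libraries were too few for a test within remission, so it has no ratio there. The difference of Alkbh3os1 therefore rests on few counts. Its reads cannot be told from those of Alkbh3 unless strand was used in counting. Use of strand is not given in the sources used here. Leaving out single remission libraries moved the count against young mice from 7 without s3 to 229 without s10, with 10 without s1, 11 without s12, 50 without s4 and 54 without s9.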

How the data were processed

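RNA of whole kidneys was sequenced with paired-end reads of 150 bases. Per the labels and the study's methods, the authors aligned reads to the mouse genome (mm10), counted reads unique to exons and splice junctions and deposited 1 file of raw counts per library, not normalized. The methods name a Burrows-Wheeler aligner and the submitters' processing notes HISAT, with no version. Each file held 24538 symbols, of which 15 with empty cells were left out. The 4 repeat libraries of mice already sequenced entered no test.

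Genes with at least 100 counts over the libraries of a fit were tested with edgeR 4.0.16 in R 4.3.3 (TMM scaling, quasi-likelihood F test, Benjamini-Hochberg adjustment over all genes tested, threshold 0.05), with library set as a term for young and nephritic mice. Alternatives were RLE scaling, DESeq2 1.42.0, limma-voom (limma 3.58.1), other count filters, joint fits and leaving out each library. Depth was the total count per library, given in the text, which limits precision for genes of few counts, and p-values measure the spread between these mice. CPM values of remission libraries used library sizes with TMM factors of those libraries. Scripts were tested on simulated data. Sums of marker genes and depth were compared by exact permutation tests, two-sided.

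Genes were named by rule: every tested clock gene; per direction, the 10 with the smallest p over 8 libraries among genes of at least 1 CPM without overlap, the 10 with the largest log2 ratio among 7-library calls of at least 1 CPM, and the 10 with the largest ratio in the young reference list; up to 5 with the smallest p among genes whose ratio differs between groups; and, of each other list, up to 4 with the smallest p over 7 libraries. Of the genes the last rule gives, those without a call are named in part. Tspan4, Slc25a20, Adipoq, Tsc22d3, Alas2, Alkbh3os1, Cyp4a10, Cyp4a14, Acot1, Ehhadh, Acadm and the members of lists named with no value were named after their values were seen. The libraries, gene lists and marker lists were chosen with earlier results of these data known. Promoters are RefSeq sequences on GRCm38.p6. Some genes that these rules give are not reported here.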

Additional observations from a re-analysis of the deposited data

Results flagged for a closer look

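In 23 of 218 groups of 4 libraries checked over the named genes, marker sums, total counts and Rn45s, 1 library stood apart, its gap to the nearest other library taking more of the group's range than Dixon's 95% limit allows, where chance gives about 1 in 20 groups. In 13 of them the library was s9 at ZT12, which was set aside for its clock genes. Some of these genes were named from the fit without s9, so this count is not to be read against that rate. The level of s9 against the other 3 ZT12 libraries, with the gap's share of the range, was Alas2 51.7 CPM against 0.482 to 3.61 CPM, share 0.939, Arntl 27.2 CPM against 3.19 to 4.87 CPM, share 0.93 and Avpr2 47.3 CPM against 22.4 to 26.6 CPM, share 0.83. For the next genes in alphabetical order it was Cdh20 2.12 CPM against 0.469 to 0.579 CPM, share 0.933, Cry1 9.23 CPM against 15.97 to 16.96 CPM, share 0.872 and Ethe1 112 CPM against 78.1 to 82.8 CPM, share 0.859. It was also Ggct 44.2 CPM against 17.1 to 19.4 CPM, share 0.913, Igfn1 2.52 CPM against 0.241 to 0.515 CPM, share 0.88 and Npas2 16.1 CPM against 1.57 to 2.36 CPM, share 0.945. It was also Pdzrn4 4.71 CPM against 0.797 to 1.46 CPM, share 0.831, Rph3a 12.3 CPM against 3.67 to 4.11 CPM, share 0.949 and Tspan4 34.5 CPM against 74.7 to 82.6 CPM, share 0.836. The last was Rn45s 3.28% against 0.439 to 0.844%, share 0.857. 

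Among the other groups the library that stood apart was s8 at ZT0 for Angptl4 12 CPM against 13.8 to 14.1 CPM, share 0.838, s1 at ZT0 for Bche 0.194 CPM against 0.864 to 0.923 CPM, share 0.919 and s3 at ZT0 for Ciart 2.05 CPM against 0.718 to 0.919 CPM, share 0.849. It was further s1 at ZT0 for Col4a3 363 CPM against 253 to 271 CPM, share 0.84, s1 at ZT0 for Hif3a 0.871 CPM against 0.399 to 0.462 CPM, share 0.868 and s3 at ZT0 for Pdzrn4 5.32 CPM against 4.55 to 4.67 CPM, share 0.845. It was further s4 at ZT0 for Rbm3 38.1 CPM against 48.4 to 48.6 CPM, share 0.981, s3 at ZT0 for Slc25a33 14.01 CPM against 12.8 to 12.9 CPM, share 0.877 and s4 at ZT0 for Rn45s 5.68% against 0.566 to 0.858%, share 0.943. It was further s10 at ZT12 for Gbp2 6.66 CPM against 19.6 to 22.1 CPM, share 0.835. No cause was tested for any of these libraries.

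The log2 ratio of ZT0 to ZT12 differed between remission and young mice over 8 libraries, by the edgeR test of the difference, for 11 of the named genes. The difference, remission minus young, was -1.15 for Avpr1a (adjusted p = 0.014), -1.43 for Cdkn1a (adjusted p = 0.0247), -1.21 for Dcdc2a (adjusted p = 0.0114), -1.65 for Dtx4 (adjusted p = 0.00116), -1.15 for Ethe1 (adjusted p = 0.0114) and -0.846 for Htra1 (adjusted p = 0.0122). It was -1.86 for Nfasc (adjusted p = 0.0141), -0.92 for Nfil3 (adjusted p = 0.0406), -3.29 for Npas2 (adjusted p = 0.0243), -1.64 for Slc16a1 (adjusted p = 0.0114) and 0.448 for St3gal6 (adjusted p = 0.0141). For the clock genes Npas2 and Nfil3 the differences over 7 libraries, a description only, were -1.85 and -0.784. Of the 11 genes, only Nfil3 was not among the 24 that differed over both 8 and 7 libraries. The cause of the difference was not tested.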

How the results depend on the processing

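Over 8 libraries, RLE scaling, limma-voom and the other count filters gave 0 calls and DESeq2 24, and the joint fit gave 9. Leaving out 1 library gave 0 to 202 calls, with 202 without s9 and 0 without any other library, and leaving out s4 and s9 together, the libraries with the most Rn45s, gave 56 (chosen after seeing the data). Over 7 libraries the same settings gave 180 to 196 calls and DESeq2 800, and leaving out 1 library gave 30 (s12) to 596 (s10), with 31 without s3, 56 without s4, 72 without s8 and 109 without s1. Of the 202 calls, 78 remained under all of these settings other than leaving out a library. The count of ratios that differ from young mice was 21 to 32 under other settings and 7 (s3) to 229 (s10) without 1 library, and the count that differ from nephritic mice was 0 under other settings and 0 to 2 (s9) without 1 library. With young genes chosen at 1.5-fold, 466 had the young direction in remission. The adipocyte sum, ZT0 minus ZT12, was -274 to -182 CPM without 1 library, where 4 against 3 cannot reach the threshold. Among 102 named genes, the log2 ratio over 7 libraries changed sign for Csnk1d (-0.0285 to 0.0476 without 1 library), Csnk1e (-0.173 to 0.00949), Fbxl21 (-0.300 to 0.251, and 0.000924 by limma-voom) and Htra1 (-0.0279 to 0.224), none of them called. The causes were not tested. No paired analysis was possible because the labels give the remission libraries no shared replicate numbers. Depth limits genes of few counts such as Slc10a6, at 0.160 to 0.364 CPM at ZT0.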

Other observations

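Genes of cytosolic ribosomal proteins, a list added after the data were seen, lay together on the ZT12 side. Of 76 tested, 75 had a log2 ratio below 0 over 7 libraries and 47 were higher at ZT12 without overlap, as were 7.17% of all genes tested, with a median log2 ratio of -0.28. Over 8 libraries all 76 had a ratio below 0, 6 were without overlap (1.81%) and the median was -0.22. None was called in either set by edgeR. Subunits of the respiratory chain (103 tested, median -0.04) and of the proteasome (37 tested, median -0.04) had 0 calls over 7 libraries.

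Some single carriers of amino acids and organic anions did not overlap between the times over 7 libraries and did not pass the threshold. In the list of amino acid and peptide transport, 2 of 27 genes were higher at ZT0 and 3 higher at ZT12 without overlap. In that of organic ion and drug transport it was 7 and 1 of 29, where 16.2% of all genes tested did not overlap. The amino acid count was near that share, so its members below are single values and no result about the list. Slc7a12, an amino acid carrier, was at 275 to 380.2 against 121 to 214 CPM (adjusted p = 0.0580), and the organic anion carriers Slc22a19 and Slc22a26 at 236 to 327 against 159 to 224 and 15.1 to 26.6 against 3.89 to 13.1 CPM, all with the higher level at ZT0. Slc6a20a, a proline carrier, Slc1a5, a glutamine carrier, and Slc7a2, a carrier of cationic amino acids, were at 18.04 to 25.1 against 26.4 to 40.6, 43.6 to 54.7 against 62.2 to 67.5 and 1.59 to 2.08 against 2.56 to 3.35 CPM, with the higher level at ZT12. Rbm3 and Cirbp, RNA-binding proteins induced by cold, were at 38.1 to 48.6 against 55.7 to 84.8 and 32.2 to 55.6 against 61.6 to 68.2 CPM, higher at ZT12 without overlap and without a call (adjusted p = 0.0909 and 0.233). Srebf1, the regulator of lipid synthesis, was at 86.05 to 109 against 66.98 to 74.7 CPM (adjusted p = 0.0655), and Pfkfb3, a regulator of glycolysis, at 22.6 to 35.3 against 45.99 to 56.2 CPM (adjusted p = 0.0652). The interferon-stimulated gene Rsad2 was at 31.5 to 41.2 against 12.8 to 25.8 CPM (adjusted p = 0.0909) and the neutrophil chemokine Cxcl1 at 1.11 to 1.86 against 1.93 to 12.1 CPM (adjusted p = 0.0987).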
